A study of Saccharomyces cerevisiae with 4 samples.

Results

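The yeast cell wall rests on a network of glucan, and the enzymes that cut, lengthen and cross-link this network after its synthesis were compared between the sch9-deleted mutant and wild-type 59A. They were 8 genes, chosen by name in the array annotation as wall glucanases and glucan remodelling enzymes, namely *SCW10*, *SCW4*, *BGL2*, *EXG1*, *EXG2*, *GAS1*, *CRH1* and *UTR2*. All 8 were measured, by 1 probe each, among 6226 features on the arrays. In the sch9-deleted strain *SCW10* was 12.3-fold higher, with a 95% interval of 10.9 to 14.0, and *CRH1* was 1.44-fold higher, with an interval of 1.13 to 1.82. The other 6 genes did not pass the test, among them *GAS1*, the only one of the 8 whose estimate was lower by more than 1.5-fold.

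Glucan chains are made at the plasma membrane and extruded into the wall, where hydrolases open them and transglycosylases join the cut ends to other chains. Exoglucanases remove glucose from the ends of chains, endoglucanases cut within them, Gas proteins lengthen them and Crh proteins attach chitin to them. The wall is remodelled in this way during budding, mating and stress. Sch9, a protein kinase below the TOR complex in nutrient signalling, was removed in the mutant.

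Transcripts were measured on 4 one-colour arrays, 2 of the sch9-deleted mutant and 2 of wild-type 59A, numbered 1 and 2 within a strain and described in the labels as biological replicates. 59A is a haploid made from a spore of the wine yeast EC1118, and in the mutant a *loxP-KanMX-loxP* cassette replaced the *SCH9* reading frame, so the mutant also carries resistance to G418. Both strains fermented without oxygen at 24 °C in synthetic medium with 230 g/L of glucose and fructose, 142 mg/L of assimilable nitrogen and 5% of the lipid factors, that is, under lipid limitation. The methods name a medium with less nitrogen beside this one, and the labels give 142 mg/L for all samples. Cells were sampled at a set amount of CO2 produced. The labels name 1 deletion strain and no other clone or complemented strain.

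The values are log2 intensities that the authors normalised by quantiles between arrays. *SCH9* itself had 5.81 and 5.67 in the mutant, within the lowest 10% of the probes of each array, against 8.72 and 8.67 in wild type. The difference between strains is given as log FC, the mutant mean minus the wild-type mean on the log2 scale, with the standard error of limma's moderated fit. A feature passed at an adjusted p under 0.05 (Benjamini-Hochberg over all features), and it is called up- or down-regulated where its log FC also exceeded 1 in size, the criteria of the methods. Over all features 26.7% passed, 14.6% as higher and 12.1% as lower, and the median log FC was -0.01. Across features, replicate 1 minus replicate 2 varied with a standard deviation of 0.14 in the mutant and 0.24 in wild type. Where 1 array is left out below, the spread comes only from the strain that keeps 2. Over all features, calls then became fewer without a mutant array and more numerous without a wild-type array. Such a loss or gain of a call is therefore not particular to the gene named. So few arrays limit the precision of all values, and with 2 against 2 an exact permutation test of 1 gene cannot give a p below 0.333. The arrays measure bulk RNA, in which a change in the share of cells of a kind and a change of RNA per cell cannot be told apart.

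Of the 8 genes 2 rose in the sch9-deleted strain, 0 fell and the remaining 6 missed the threshold in limma, which is 25% of the genes against 26.7% of all features, so the share that passed was close to the background. At an unadjusted p under 0.05, 3 were higher and 1 was lower, and over all features 42.1% passed at this threshold, 21.1% as higher and 21.0% as lower. The median log FC of the 8 genes was 0.13, against -0.01 over all features. The arrays of the strains did not overlap in 6 of the 8 genes, 4 of them higher in the mutant and 2 lower, whereas over all features this held for 69.5%, for 33.7% as higher and for 35.8% as lower. No gene of the 8 lay near the floor, taken as the lowest 10% of the probes of an array, in both arrays of a strain. The changes were uneven in size, with *SCW10* at a log FC of 3.63, while the others lay between -0.80 and 0.52. *SCW10* was the 1 up-regulated gene of the 8 and 0 were down-regulated, whereas 2.18% of all features were up-regulated and 1.64% down-regulated.

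**Figure D1:**
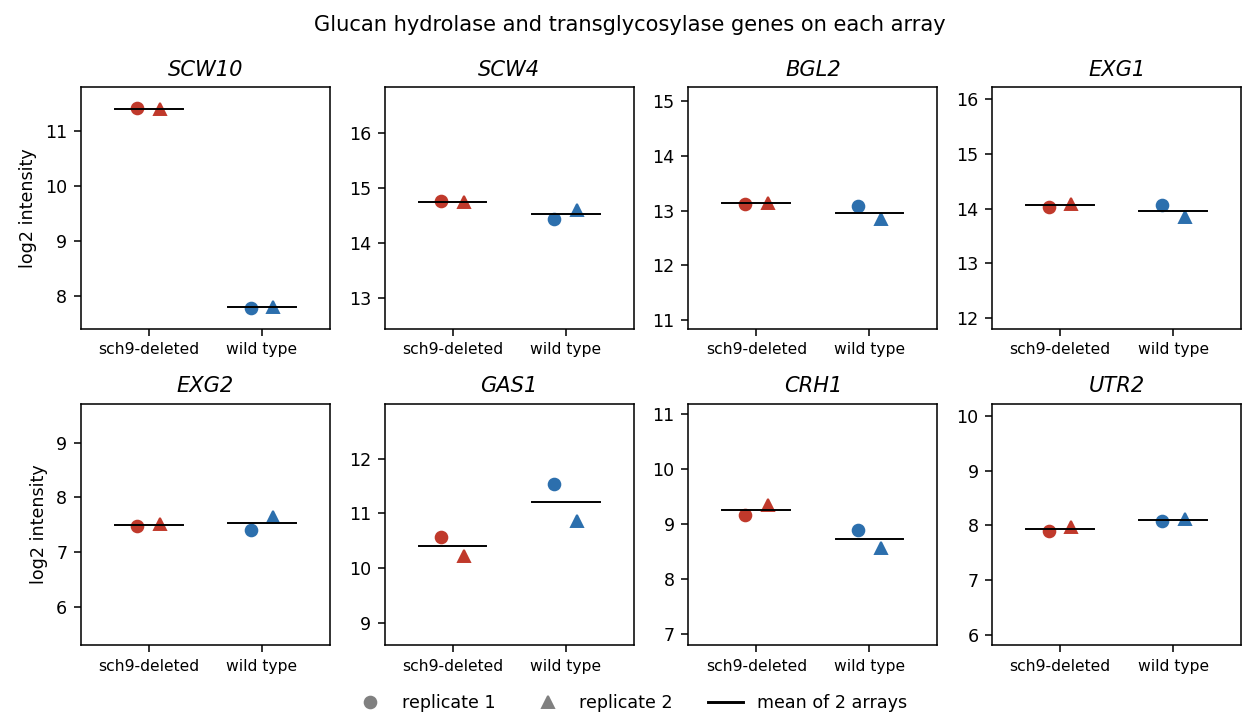
Log2 intensity of the 8 genes on each array, sch9-deleted on the left and wild type on the right of each panel, with circles for replicate 1, triangles for replicate 2 and lines at the mean of 2 arrays. Each panel spans the same number of log2 units around its own centre, so that the 3.63 of *SCW10* can be set beside the changes of the other genes, which were below 1 in size.

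*SCW10* encodes a soluble wall protein similar to glucanases. Its log2 intensity was 11.42 and 11.40 in the sch9-deleted replicates 1 and 2, against 7.77 and 7.80 in those of wild type. The replicates differed by 0.02 in the mutant and by 0.03 in wild type, and the strains were 3.60 apart at their nearest arrays. The log FC was 3.63 with a standard error of 0.07 (adjusted p = 4.8e-05 in limma) and ranked 4 from the top among the 6226 features. With any 1 array left out it stayed between 3.61 and 3.64 and passed. The wild-type values were above 32.2% of the features on their arrays, so the change was not measured against the floor.

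*SCW4*, the paralogue of *SCW10*, also encodes a glucanase-like wall protein, and the products of both genes are known to contribute together to wall integrity and mating. It had 14.76 and 14.74 in the mutant arrays, against 14.43 and 14.60 in the wild-type arrays. The groups did not overlap, with 0.14 between the nearest arrays, but the log FC was 0.23, with a standard error of 0.09, and did not pass (adjusted p = 0.106 in limma). Its 95% interval, 0.01 to 0.45, lay far below the change of *SCW10*. Without replicate 2 of wild type the log FC was 0.32 and passed, and without replicate 1 it was 0.15 and did not pass.

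The difference between the paralogues was tested itself, on the array values of *SCW10* minus those of *SCW4*, so that the constant of each probe cancels. *SCW10* changed by 3.39 more than *SCW4* (standard error 0.10, 95% interval 3.15 to 3.64, adjusted p = 5.4e-05 from limma), and over the 4 pairings of a mutant with a wild-type array this difference ranged from 3.32 to 3.46. It was 1 of 4 pairs of related genes compared in this way. In these fits every feature shares the error of the gene taken away, so their p-values can be too small, and the exact permutation test gave p = 0.333, the smallest it can give here.

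*BGL2* encodes the main endo-beta-glucanase of the wall, which can also join glucan chains and belongs to the same enzyme family as the Scw proteins. It had 13.12 and 13.14 in the sch9-deleted arrays, against 13.08 and 12.84 in the wild-type arrays. The log FC was 0.17 (standard error 0.10, 95% interval -0.09 to 0.43, adjusted p = 0.261 from limma), and replicate 1 of wild type lay 0.04 below the nearest mutant array. Without this array the log FC was 0.30 and passed, and without replicate 2 of wild type it was 0.05 and did not pass. *SCW10* changed by 3.45 more than *BGL2*, between 3.29 and 3.61 over the pairings of arrays. No p-value is given for this pair, because limma's prior degrees of freedom became infinite when *BGL2* was taken away.

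Neither of the exoglucanase genes passed the test. *EXG1*, which encodes the main secreted exoglucanase, had 14.04 and 14.08 in the mutant, against 14.07 and 13.85 in wild type. *EXG2*, which encodes an exoglucanase held at the cell surface by a lipid anchor, had 7.47 and 7.51 in the mutant, against 7.41 and 7.64 in wild type. In both genes the arrays of the strains overlapped. The log FC of *EXG1* was 0.09 (95% interval -0.15 to 0.34, adjusted p = 0.515 from limma) and that of *EXG2* was -0.03 (95% interval -0.29 to 0.22, adjusted p = 0.833). Their difference was 0.13 (95% interval -0.29 to 0.54, adjusted p = 0.684 from limma). It was 0.36 without replicate 1 of wild type, where it passed, and -0.10 without replicate 2, where it did not.

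*GAS1* encodes a lipid-anchored transglycosylase that lengthens glucan chains at the cell surface. It had 10.56 and 10.23 in the sch9-deleted replicates 1 and 2, against 11.54 and 10.87 in those of wild type. Both mutant arrays were lower than both wild-type arrays, by 0.30 at the nearest pair, while replicate 1 exceeded replicate 2 by 0.33 within the mutant and by 0.67 within wild type. The log FC was -0.80 (standard error 0.24, 95% interval -1.41 to -0.19, adjusted p = 0.0620 from limma), a level 1.75-fold lower in the mutant that did not pass. No other gene of the 8 varied as much between replicates. Without replicate 1 of wild type the log FC was -0.47, and without replicate 2 it was -1.14. So 1 array moved the size by more than 1.5 times. *GAS1* passed as lower in both of these fits, in which calls over all features were also more numerous. Without replicate 1 of the mutant the log FC was -0.97 and without replicate 2 of the mutant -0.64.

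**Figure D2:**
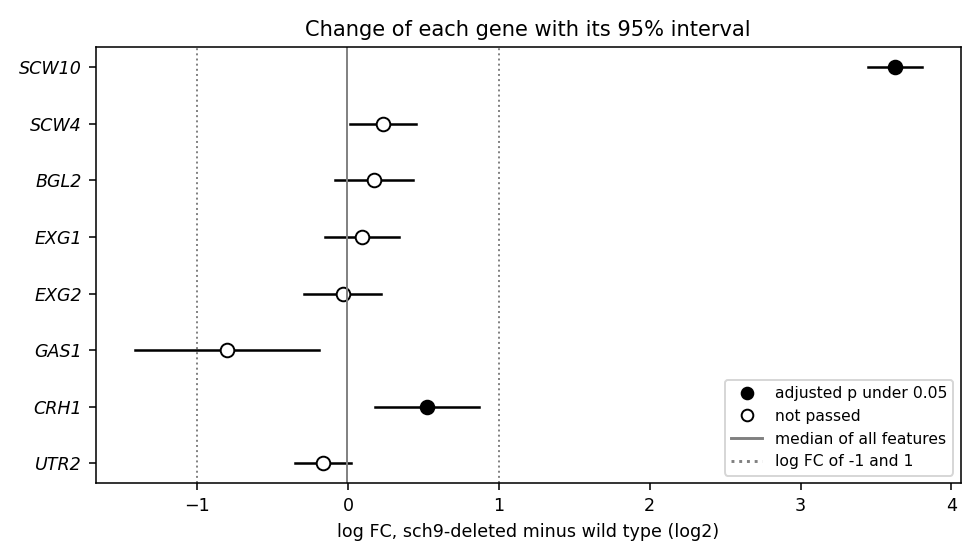
Log FC of the 8 genes, sch9-deleted minus wild type on the log2 scale, with 95% intervals from limma's moderated fit. Filled points passed at an adjusted p under 0.05, the grey line marks the median of all features at -0.01 and the dotted lines mark log FC of -1 and 1. *SCW10* at 3.63 lies apart from the other genes, and the interval of *GAS1*, from -1.41 to -0.19, is the widest.

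*CRH1* and *UTR2*, also called *CRH2*, encode transglycosylases that link chitin to glucan. *CRH1* had 9.16 and 9.36 in the sch9-deleted arrays, against 8.90 and 8.57 in the wild-type arrays. Both mutant arrays were higher than both wild-type arrays, by 0.26 at the nearest pair, and the log FC was 0.52 (standard error 0.14, 95% interval 0.18 to 0.87, adjusted p = 0.0436 from limma). This call was near the threshold. Without replicate 1 of the mutant the log FC was 0.62 and without replicate 2 it was 0.43. The call was lost in both fits, as were most calls over all features. With the position on the slide as a covariate in limma it was lost too, at 0.39 (adjusted p = 0.0552).

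*UTR2* had 7.90 and 7.97 in the sch9-deleted arrays, against 8.09 and 8.11 in the wild-type arrays. The mutant arrays were the lower ones, by 0.12 at the nearest pair, but the log FC was -0.16 with a standard error of 0.07 (95% interval -0.35 to 0.02, adjusted p = 0.153 in limma), which did not pass. *CRH1* changed by 0.69 more than *UTR2* (standard error 0.14, 95% interval 0.34 to 1.04, adjusted p = 0.0196), and both mutant arrays showed a higher *CRH1* relative to *UTR2* than both wild-type arrays, by at least 0.45. Without replicate 1 of the mutant the difference was 0.75 and without replicate 2 it was 0.63, and neither passed. The exact permutation test of this pair gave p = 0.333 as well, the smallest it can give here, so it cannot decide.

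**Figure D3:**
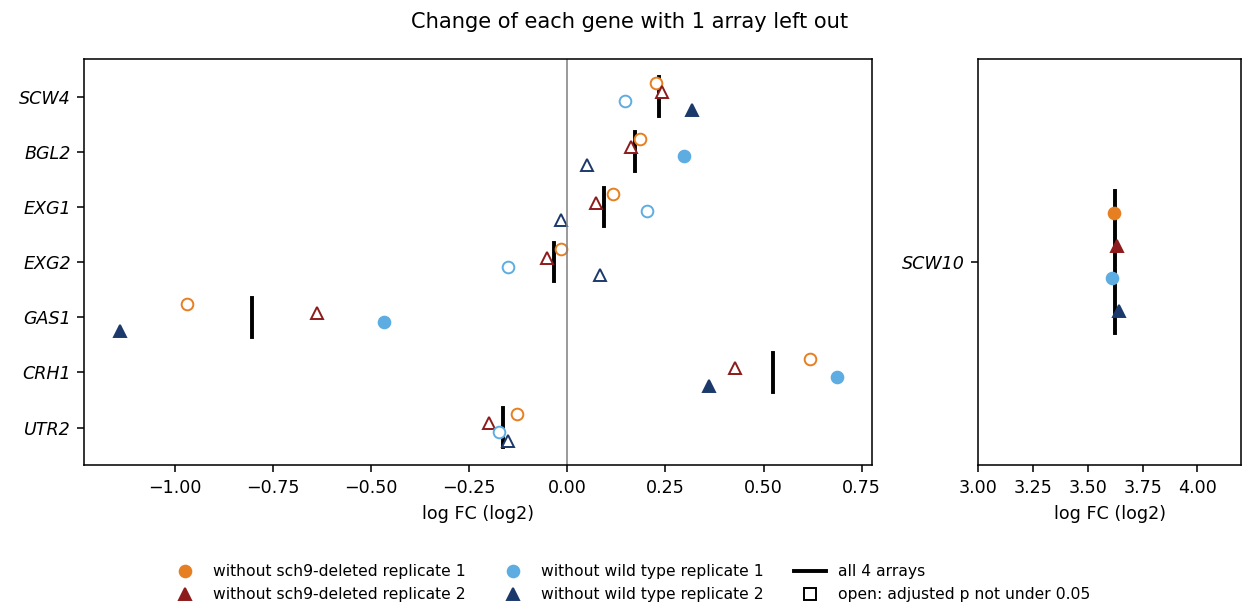
Log FC of each gene with 1 of the 4 arrays left out, with *SCW10* in a panel of its own scale on the right. Black lines mark the value with all arrays, and filled markers passed at an adjusted p under 0.05. The values of *SCW10* stayed between 3.61 and 3.64, those of *GAS1* ranged from -1.14 to -0.47 and those of *CRH1* from 0.36 to 0.69, and *EXG1* and *EXG2* lay on both sides of 0.

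The replicates of the mutant were the closer ones in 7 of the 8 genes, the exception being *UTR2*. They differed by 0.02 (*SCW4*) to 0.33 (*GAS1*) in the mutant, and by 0.02 (*UTR2*) to 0.67 (*GAS1*) in wild type.

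Other genes that act on glucan were counted to set the 8 genes in their pathway. Over all features 26.7% passed, 14.6% as higher and 12.1% as lower, and 42.1% passed at an unadjusted p under 0.05. Of 9 measured genes for other glucanases and related wall proteins 2 were higher and 1 was lower at an unadjusted p under 0.05. Their median log FC was 0.17. After adjustment 1 rose in the sch9-deleted strain, 0 fell and 8 stayed below the threshold in limma, so 11.1% passed. The higher one was *SIM1*, of the SUN family of wall proteins, with 10.27 and 10.34 in the mutant, against 8.75 and 8.68 in wild type, a log FC of 1.59 (standard error 0.08). Its relative *NCA3* had a log FC of 0.88 (standard error 0.39) that did not pass with all arrays and was 1.48 and passed without replicate 1 of wild type, and *UTH1* behaved likewise, at 0.35 with all arrays and 0.53 without that one. *SPR1*, a sporulation exoglucanase, had 6.10 and 6.04 in the mutant, against 6.44 and 6.07 in wild type, just above the floor. Its log FC was -0.18 with all arrays. It passed at -0.37 without replicate 2 of wild type, which leaves only the wild-type array at 6.44. The log FC furthest below 0 in this list was that of *DSE2*, a glucanase-like gene of daughter cells, at -0.21 (adjusted p = 0.0945).

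Among 4 measured genes of the other Gas and Crh transglycosylases 1 rose, 0 fell and 3 missed the threshold in limma. This share of 25% was near the 26.7% of all features. At an unadjusted p under 0.05, 2 of the 4 were higher and 1 was lower. The median log FC of the 4 genes was 0.24. *CRR1*, the Crh relative known from spore walls, had 9.05 and 9.12 in the mutant, against 7.73 and 7.83 in wild type, and rose by 1.31 (standard error 0.08, adjusted p = 8.9e-04). It was the Crh gene with the highest log FC, ahead of *CRH1* at 0.52 and *UTR2* at -0.16, though its difference from them was not tested. In the Gas family *GAS3* had a log FC of -0.19 and *GAS5* of 0.45, and neither passed with all arrays. *GAS5* was at 0.64 and passed without replicate 1 of wild type.

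Of 7 measured genes for the glucan synthase at the plasma membrane and its regulators 2 rose, 1 fell and 4 did not pass. The share that passed was 42.9%, against 26.7% of all features, and the median log FC was 0.16. The main catalytic subunit genes *FKS1* and *GSC2* had log FC of -0.28 and 0.16 without passing, whereas *FKS3*, their relative known from sporulation, was higher at 0.48 (standard error 0.09) and *LRE1* at 0.39 (standard error 0.08). *SMI1*, a regulator of glucan synthesis, had 9.35 and 9.06 in the mutant, against 10.36 and 9.77 in wild type, and was lower by limma at a log FC of -0.86, with a standard error of 0.21 (adjusted p = 0.0394). As in *GAS1*, replicate 1 of *SMI1* was the higher in either strain. The calls of *FKS3*, *LRE1* and *SMI1* were lost without replicate 1 and without replicate 2 of the mutant, and *FKS1*, *GSC2* and *ROM2* passed without replicate 2 of wild type, *FKS1* at a log FC of -0.50, *GSC2* at 0.26 and *ROM2*, an activator of the Rho1 subunit, at 0.24.

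Of 8 measured genes for the synthesis of the other, branching kind of glucan 1 rose, 1 fell and 6 did not pass. The share that passed was 25%, near the 26.7% of all features, and the median log FC was -0.02. *SKN1* was the higher one at 0.46 (standard error 0.08) and *BIG1*, whose product lies in the endoplasmic reticulum, the lower one at -0.35 (standard error 0.09). Both calls were lost without replicate 1 and without replicate 2 of the mutant, and *KRE1* passed without replicate 2 of wild type, at 0.39. Of 16 genes of chitin synthesis and breakdown 3 rose, 0 fell and 13 did not pass in limma. This share of 18.75% was below the 26.7% of all features. At an unadjusted p under 0.05, 3 of the 16 were higher and 1 was lower, while 42.1% of all features passed. The median log FC of the 16 genes was 0.11. *CHS1*, a chitin synthase of wall repair, rose by 0.82 (standard error 0.11), the chitinase gene *CTS1* by 0.64 (standard error 0.08) and *CHS5*, which acts in the transport of another chitin synthase, by 0.48 (standard error 0.09). The lowest log FC of the list was -0.22 in *CHS2*, and *CDA1* and *CDA2*, chitin deacetylase genes known from sporulation, were near the floor on all arrays. Without replicate 2 of the mutant all 3 calls were lost, and that of *CHS5* also without replicate 1, while *CHS3*, *CHS6* and *PCM1* passed without replicate 1 of wild type, at 0.35, 0.25 and -0.39.

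UDP-glucose, from which glucan is built, is made by the products of *PGM1*, *PGM2* and *UGP1*. *PGM2*, the main phosphoglucomutase gene, was higher by 0.54 (standard error 0.09, adjusted p = 0.0143 from limma), *UGP1* had a log FC of 0.36 (adjusted p = 0.121) and *PGM1* one of -0.08 (adjusted p = 0.621). The call of *PGM2* was lost without replicate 1 and without replicate 2 of the mutant, and *UGP1* passed without replicate 2 of wild type, at 0.56.

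**Figure D4:**
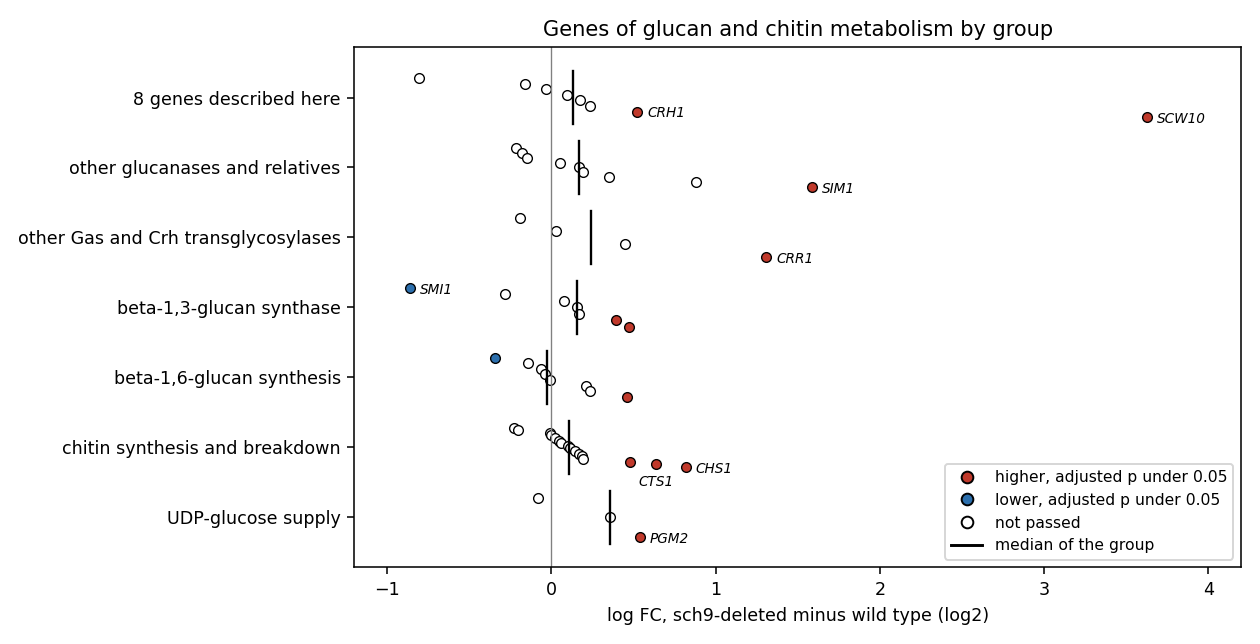
Log FC, sch9-deleted minus wild type, of the 8 genes and of the measured genes of 6 related groups, with the 8 genes in the top row. Red and blue points were higher and lower at an adjusted p under 0.05, open points did not pass and black lines mark the median of each group. *SCW10* at 3.63 stands to the right of every other gene shown, *SIM1* and *CRR1* follow at 1.59 and 1.31, and *SMI1* at -0.86 and *GAS1* at -0.80 are the lowest.

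The profile of *SCW10* over the 4 arrays was set against that of every named gene, each centred on its own mean. The nearest were *AGA1*, the anchor subunit of a-agglutinin, with a root mean square difference of 0.07 on the log2 scale, *PRY2*, a secreted sterol-binding protein, with 0.09, *AGA2*, whose product carries the binding site of that agglutinin, with 0.13, the stress gene *HSP12* with 0.16 and the hexose transporter gene *HXT5* with 0.24. *AGA1* had 10.61 and 10.64 in the mutant, against 6.84 and 6.89 in wild type, a log FC of 3.76. The log FC of the others were 3.54 in *PRY2*, 3.41 in *AGA2* and 3.90 in *HSP12*, and *HXT5* was 17.1-fold higher. With 4 arrays in 2 strains, nearness in this measure is mostly a like log FC.

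**Figure D5:**
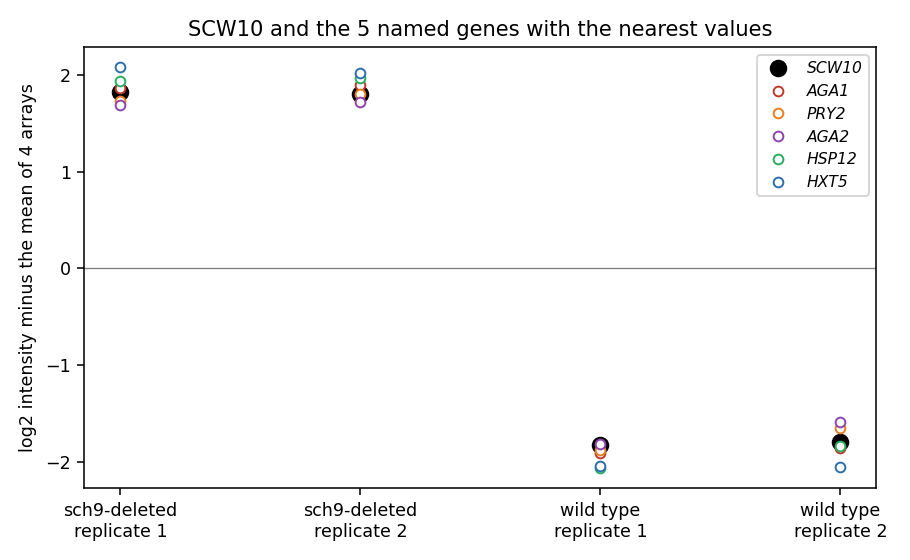
Log2 intensity minus the mean of the 4 arrays, by array, for *SCW10* (filled) and the 5 named genes nearest to it (open). All 6 genes lie above their mean in both sch9-deleted arrays and below it in both wild-type arrays, and *HXT5* lies highest of them in both sch9-deleted arrays.

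Markers of cell kinds were read beside *SCW10*, since its product is known to act in mating and the labels give no mating type. For the counts that follow, 14.6% of all features were higher and 12.1% lower in limma, and 42.1% passed at an unadjusted p under 0.05. All 7 measured a-specific genes rose in the mutant, with a median log FC of 2.03, and the sum of their linear intensities was 19084 and 18643 in the mutant arrays, against 5753 and 5831 in wild type, with 0 of the 7 near the floor on all arrays. Those with the highest log FC were *AGA2* at 3.41, *BAR1* at 2.86, *ASG7* at 2.55 and *STE2* at 2.03, and *STE6* at 0.68 lost its call without replicate 2 of the mutant. Of 4 genes specific to alpha cells 3 were higher, led by *SAG1*, the alpha-agglutinin gene, at 2.38, at sums of 1401 and 1446 in the mutant, against 384.0 and 389.4 in wild type. *STE3*, the alpha-cell receptor gene, and *MF(ALPHA)1*, a pheromone gene of alpha cells, were near the floor on all arrays, and *MF(ALPHA)2* was near it in wild type. *MF(ALPHA)1* lost its call without replicate 1 and without replicate 2 of the mutant. Leaving out the dimmest features removed *STE3*, *MF(ALPHA)1* and *MF(ALPHA)2* from the fit. *SAG1* was then the 1 gene of the list that was measured and higher. Of 10 genes of daughter cells 3 were higher and 0 lower in limma, with 4 higher and 1 lower at an unadjusted p under 0.05, at sums of 1823 and 1862 in the mutant, against 1576 and 1530 in wild type. *DSE1* led these at a log FC of 1.34, followed by *CTS1* at 0.64 and *ASH1* at 0.43. *ASH1* lost its call without replicate 1 and without replicate 2 of the mutant and *CTS1* without replicate 2, which left 1 gene of this list higher. The part of any of these in the value of *SCW10* was not tested.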

How the data were processed

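Cy3-labelled RNA of the 4 samples was hybridised by the authors to one-colour Agilent yeast arrays, all on slide 1, and quantile normalisation was done with limma (R 2.14.2 in the submitters' processing notes). The deposited values are log2 intensities, 1 per probe, for 6227 probes without a missing value. The log2 scale was read from the values, while whether background was subtracted is not stated. The values were used as deposited. Probes were named by the array annotation, in which 4061 have 1 symbol, 0 have several and 2166 are unnamed here, and 4056 of 4060 symbols matched the RefSeq annotation of assembly R64. Of the pathway lists *GAS2* and *KEG1* were not analysed here.

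limma 3.58.1 (lmFit and eBayes, run under R 4.3.3) gave the difference of sch9-deleted minus wild type over 6226 features, the 2 probes of 1 gene being averaged. On simulated data for this comparison with 6226 features, 27 of 50 features changed by 0.5 on the log2 scale were called. Of those changed by 1 and by 2, 39 of 50 and 47 of 50 were called. The simulated noise was independent and had 1 size per feature in both strains, whereas the wild-type replicates varied more than those of the mutant. For related genes the second was subtracted on each array before the fit. Alternatives were a log FC beyond 1, unadjusted p, treat, quantile normalisation, centring on the median, the 75th percentile as the scale, removal of the dimmest 0.25 of the features, an intensity trend, robust hyperparameters, the brightest probe, each array left out (the lone array of a strain is then assumed to vary like the other strain), the replicate number as a block and slide position as a covariate. Named were the 8 genes, *SCH9*, up to 4 passing genes of each list and 1 against its direction, and the 5 nearest profiles. Other genes of the lists were named after their values were seen, because leaving out 1 array changed their call. The genes and lists were chosen with earlier results of these data known. The separate cultures of the replicates are as the labels state. Figures come from matplotlib 3.10.9 (Python 3.11.15).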

Additional observations from a re-analysis of the deposited data

How the results depend on the processing

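*SCW10* kept its direction and its call under all alternatives run, at log FC from 3.61 to 3.64 with 1 array left out, and *UTR2* did not pass under any of them (-0.20 to -0.13). *SCW4* passed at an unadjusted p (0.23) and without replicate 2 of wild type, with 0.15 to 0.32 when 1 array was left out. *BGL2* had 0.050 to 0.30 and passed without replicate 1 of wild type. *EXG1* (-0.015 to 0.20) and *EXG2* (-0.15 to 0.083) changed sign with 1 array left out, and *EXG2* also with slide position as a covariate (0.028), but neither was called. *GAS1* ranged from -1.14 to -0.47 and passed without replicate 1 and without replicate 2 of wild type. With all arrays, -0.80 passed at an unadjusted p. *CRH1* ranged from 0.36 to 0.69. It did not pass with slide position as a covariate (0.39), nor, at 0.52, with a log FC beyond 1 or with treat, which tests against a log FC of 0.5. Same-numbered replicates deviated together over all features (r = 0.53), but 2 pairs cannot show that the number pairs the cultures. With the replicate number as a block *GAS1* passed at -0.80 (adjusted p = 3.7e-04), 1 of the 8 genes was lower, and 1311 features were lower in all, against 753 without it, and the block ended or added no other call among the 8 genes.

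Of the 8 genes 1 to 3 were higher and 0 to 1 lower with 1 array left out, 1 was higher with slide position or a log FC beyond 1, and 1 was lower at an unadjusted p. Over all features 912 were higher and 753 lower, 179 to 1313 and 58 to 1268 with 1 array left out, 586 and 445 with slide position and 136 and 102 with a log FC beyond 1, and 1307 were lower at an unadjusted p. Over the other lists 21 genes were higher and 2 lower, against 11 to 26 and 0 to 4 with 1 array left out and 11 and 0 with a log FC beyond 1, while 1 was lower with robust hyperparameters or slide position and 5 at an unadjusted p. *SCW10* minus *SCW4* had 3.32 to 3.46 with 1 array left out, *CRH1* minus *UTR2* 0.51 to 0.86, *EXG1* minus *EXG2* -0.10 to 0.36 and *SCW10* minus *BGL2* 3.31 to 3.59. The exact permutation test, added after the data were seen, cannot pass in this design and left 3.39, 0.69 and 3.45 without a call. The cause was not tested for these changes. Signal over background could not be checked, since no background values were used.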

Other observations

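*SCW10*, *FKS3* and *GAS1* stand next to each other in the genome, in that order in the RefSeq annotation of assembly R64, and their values differed. The log FC was 3.63 in *SCW10*, 0.48 in *FKS3* (adjusted p = 0.0217 from limma) and -0.80 in *GAS1*, and the genes on their outer sides, *UBP15* beside *SCW10* and *PSE1* beside *GAS1*, had -0.01 and -0.23. *FKS3* lost its call without either of the mutant arrays, at 0.56 and 0.39, and *PSE1* passed without replicate 2 of wild type, at -0.47. Of the 9 measured and named genes next to 1 of the 8 genes 2 were higher, 1 was lower and 6 did not pass. Over all features 14.6% were higher and 12.1% lower. Beside *EXG1*, *ECM38*, which encodes a glutathione-degrading enzyme, was lower at -0.42 (adjusted p = 0.0143), and beside *UTR2* the cytochrome gene *CYC7* was higher at 0.56 (adjusted p = 0.00803), and both calls were lost without replicate 1 and without replicate 2 of the mutant. *PXR1* beside *SCW4* had -0.44 and passed without replicate 2 of wild type, at -0.76, while *CWC22* beside *SCW4*, *YOR1* beside *BGL2* and *SWM1* beside *EXG2* had 0.09, 0.11 and -0.04 and did not pass. These neighbours were looked at after the values of the 8 genes had been seen.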
